A study of Mus musculus with 18 samples.

Results

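Tumours from wild-type (WT) hosts given clonidine were compared with tumours from WT hosts given guanabenz. The comparison used 3 libraries per drug, taken from the sample titles WT-Clonidine and WT-Guanabenz, so that 6 of the 18 libraries of the series entered it, and no measured value was used to choose them. Of 20994 genes with a symbol, 16115 had enough counts to be tested. MC38-OVA, a mouse colon carcinoma line that carries the model antigen ovalbumin, was implanted into WT mice or into ADRA2A-/- (KO) mice, and RNA of the whole tumour was sequenced. Clonidine, guanabenz or PBS was injected intraperitoneally every day, tumours were taken 7 days after treatment, and the animals are labelled as 10 weeks old. The WT-Control group carries the treatment entry Untreated, while the protocol names PBS as the third injection. The tumour cells have their own genome, so a KO host lacks Adra2a only in the host cells of its tumour. The labels give no dose of either drug, so a difference between the drugs cannot be told apart from a difference in effective dose. No label ties a library to an animal, so the p-values measure the spread between libraries, which may be technical in part.

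Alpha2-adrenergic receptors bind noradrenaline and adrenaline and couple to Gi proteins, which inhibit adenylyl cyclase and lower cyclic AMP. Clonidine and guanabenz are both agonists of these receptors that lower blood pressure through the brainstem. Each carries a phenyl ring with chlorine at both ortho positions; in clonidine it is joined to an imidazoline ring, and in guanabenz to an open guanidine group through a hydrazone. Guanabenz has also been reported to act on a phosphatase complex containing PPP1R15A, which removes the phosphate that stress kinases place on the translation factor eIF2. Genes of that pathway were therefore followed beside immune, vascular and metabolic genes.

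The 6 libraries held between 54.7 and 275.1 estimated counts in units of 1e6, and 2 of the 3 guanabenz libraries were the shallowest of the 6. Levels are given as counts per 1e6 counts (CPM), and differences as log2 of clonidine over guanabenz. The level of a gene list in a library is the mean of its members' log2 CPM minus the WT-Control mean. WT-Guanabenz 1 stood apart with T cell costimulation genes at -0.49, NK cell genes at -0.78 and erythroid genes at 1.58 on that scale. WT-Guanabenz 3 stood apart with inflammatory cytokine genes at 2.01, skin epidermis genes at 1.15 and neutrophil genes at 0.76. Transcripts from the Y chromosome were present in libraries 1 and 2 of each drug and under 1 CPM in library 3 of each, so that they were balanced between the drugs. Epithelial keratins of a colon carcinoma were near 0 in all 6 libraries, with Krt8 between 0.103 and 0.251 CPM, while the adhesion genes Cdh1 and Epcam reached 4.12 to 9.76 and 0.778 to 2.75 CPM.

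No gene passed the test between the drugs. With edgeR's quasi-likelihood test and Benjamini-Hochberg adjustment, 0 of 16115 genes (0%) had an adjusted p under 0.05, and the smallest adjusted p was 0.55. At an unadjusted p under 0.05 there were 814 genes (5.05%), of which 414 (2.57%) were higher and 400 (2.48%) lower with clonidine, where 5% of the tested genes is 806. DESeq2 called 4 genes (0.0248%) and limma-voom 1 (0.00621%). The 3 clonidine libraries lay entirely above the 3 guanabenz libraries for 858 genes (5.32%) and entirely below for 602 (3.74%). Differences were positive for 7770 genes (48.2%), with a median of -0.01 and quartiles of -0.09 and 0.08. The distribution of p was close to flat.

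**Figure D1:**
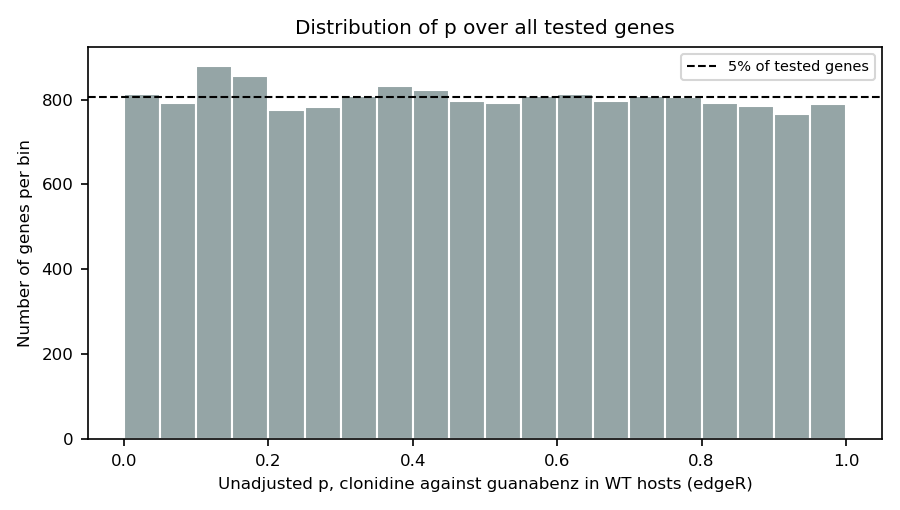
Number of tested genes (vertical axis) in each bin of unadjusted edgeR p (horizontal axis) for clonidine against guanabenz in WT hosts. The bins hold 766 to 880 genes, around the dashed line at 5% of the tested genes, with no excess at small p.

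A p that misses the threshold does not show that the drugs acted alike, so the size of difference that the data still allow was read from 95% intervals. These intervals lay within a 2-fold difference in either direction for 13486 genes (83.7%), and for 11599 of the 11910 genes (97.4%) with a mean log2 CPM of at least 1. Within 1.5-fold they lay for 11001 genes (68.3%) and for 10651 (89.4%) of the better expressed ones. The median standard error (SE) of a difference was 0.11 on the log2 scale. For most well expressed genes a difference above 2-fold was therefore outside the interval.

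The gene with the smallest p was H2ac11, a replication-dependent histone H2A gene (chromosome 13, 22042478 to 22042949, GRCm38.p6). Its levels were 0.871, 0.665 and 0.742 CPM with clonidine and 2.21, 2.28 and 1.29 CPM with guanabenz. The groups did not overlap, and the lowest guanabenz library was closer to the clonidine libraries than to its own group. The difference was -1.33 (SE 0.24, edgeR adjusted p = 0.55), and without WT-Guanabenz 3 it was -1.56 and passed the test at an adjusted p of 0.043. DESeq2 and limma-voom both called it, with adjusted p of 0.0027 and 0.015. Histone H2A genes are nearly identical to each other, so the assignment of reads among them is uncertain. The other 3 genes called by DESeq2 alone were Hey1, Usp28 and Gm21188. Usp28, a deubiquitinase of the DNA damage response, lay from 19.8 to 20.4 CPM with clonidine and was at least 23.0 CPM in each guanabenz library, a difference of -0.25 (SE 0.05, edgeR adjusted p = 0.96). This was a small difference between groups that each varied little.

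The 15 genes with the smallest p and a mean log2 CPM of at least 0 were described singly, with no test of what they share. Hey1, a transcriptional repressor downstream of Notch in arterial endothelium (chromosome 3, 8663359 to 8667038), was at 4.56, 4.69 and 4.29 CPM with clonidine and 2.28, 2.96 and 3.26 CPM with guanabenz. Its difference was 0.67 (SE 0.14, 95% interval 0.37 to 0.97, edgeR adjusted p = 0.96). The WT-Control mean was between those of the 2 drugs, as the plot of single genes shows. Gja5, a connexin of arterial gap junctions, was at 6.31, 5.54 and 4.67 CPM with clonidine and 3.46, 3.2 and 2.91 CPM with guanabenz, a difference of 0.79 (SE 0.2). Sema3g, a secreted semaphorin of arterial endothelium, differed by 0.79 (SE 0.2), and Plvap, the diaphragm protein of fenestrated capillaries, by 0.43 (SE 0.11). Their adjusted p in edgeR was 0.96 as well, so none of these genes passed the test.

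The remaining genes of these 15 have varied known roles. Those higher with clonidine were Gm21188, Tril, a Toll-like receptor accessory protein (0.98), Cd5, a T cell surface glycoprotein (1.03), C1d, an exosome cofactor (0.23), Chrna1, the muscle acetylcholine receptor subunit (0.77), Nr1h3, the sterol-sensing liver X receptor alpha (0.66), and Pdrg1 (0.22). Those lower were H2ac11, Usp28, Asb4 (-0.84) and Lpin1, a phosphatidate phosphatase (-0.41). Each had non-overlapping groups, and since the same values gave the p, the separation adds no evidence to it.

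**Figure D2:**
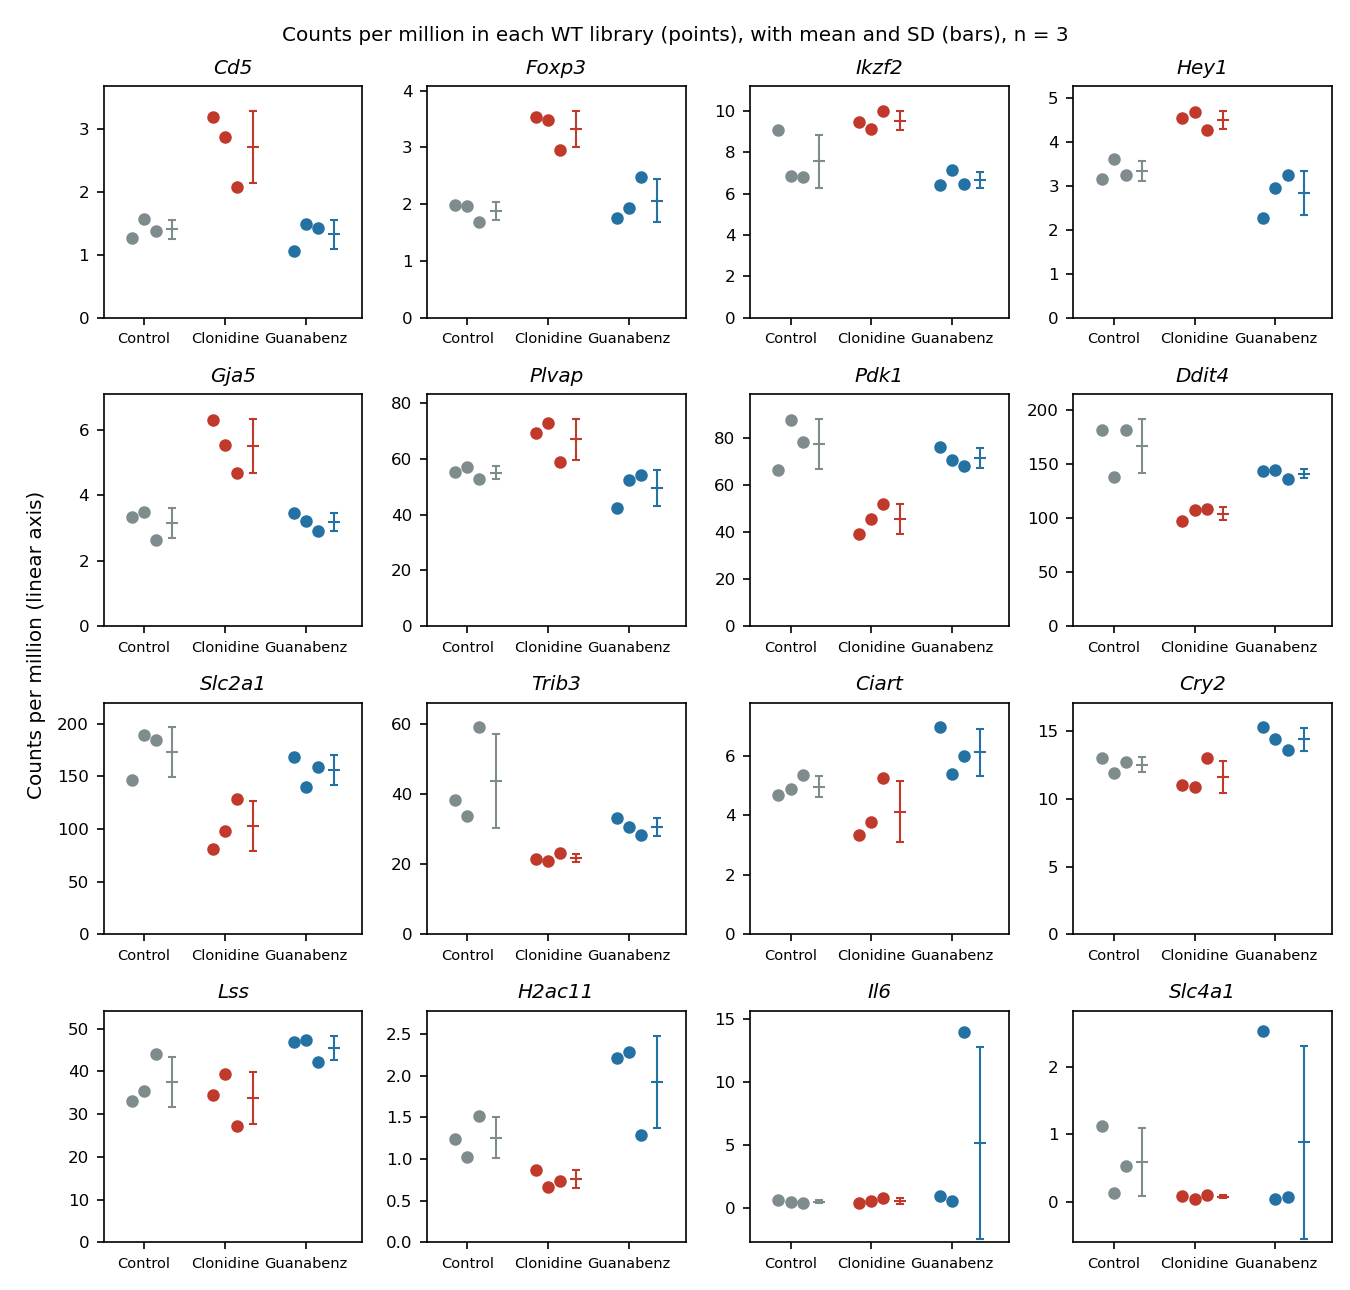
CPM on linear axes for 16 genes in the 3 WT-Control, 3 WT-Clonidine and 3 WT-Guanabenz libraries (points, library 1 to 3 from left to right) with mean and SD (bars, n = 3). Hey1, Gja5, Cd5 and Ikzf2 have every clonidine library above every guanabenz library, Pdk1 and Ddit4 have every one below, and Il6 and Slc4a1 have 1 high guanabenz library each.

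The receptors of both drugs were scarce or nearly level between the drugs. Adra2a, the alpha2A receptor, was at 0.435, 0.484 and 0.32 CPM with clonidine and 0.423, 0.426 and 0.448 CPM with guanabenz. The groups overlapped and the difference was -0.05 (95% interval -0.73 to 0.62). Adra2b differed by -0.11 (-0.84 to 0.62), and Adra2c, with at most 4 counts in each of the 6 libraries, was not tested. Nisch, an imidazoline-binding protein that has been proposed to bind clonidine, was well expressed at 266 to 280 CPM with clonidine and 267 to 279 CPM with guanabenz. Its difference of -0.01 had the narrow interval of -0.14 to 0.12. Of 19 genes for Gi proteins, adenylyl cyclases, phosphodiesterases and regulators of G protein signalling, 8 were higher and 11 lower with clonidine. None had non-overlapping groups, where 5.32% of all genes lay above and 3.74% below, so this count says little. The median was -0.02, and members ran from -0.91 for Rgs1 to 0.41, with 17 intervals within 2-fold. Gnai2, the most abundant type of inhibitory G alpha subunit in leukocytes, differed by 0.06 (-0.08 to 0.2).

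**Figure D3:**
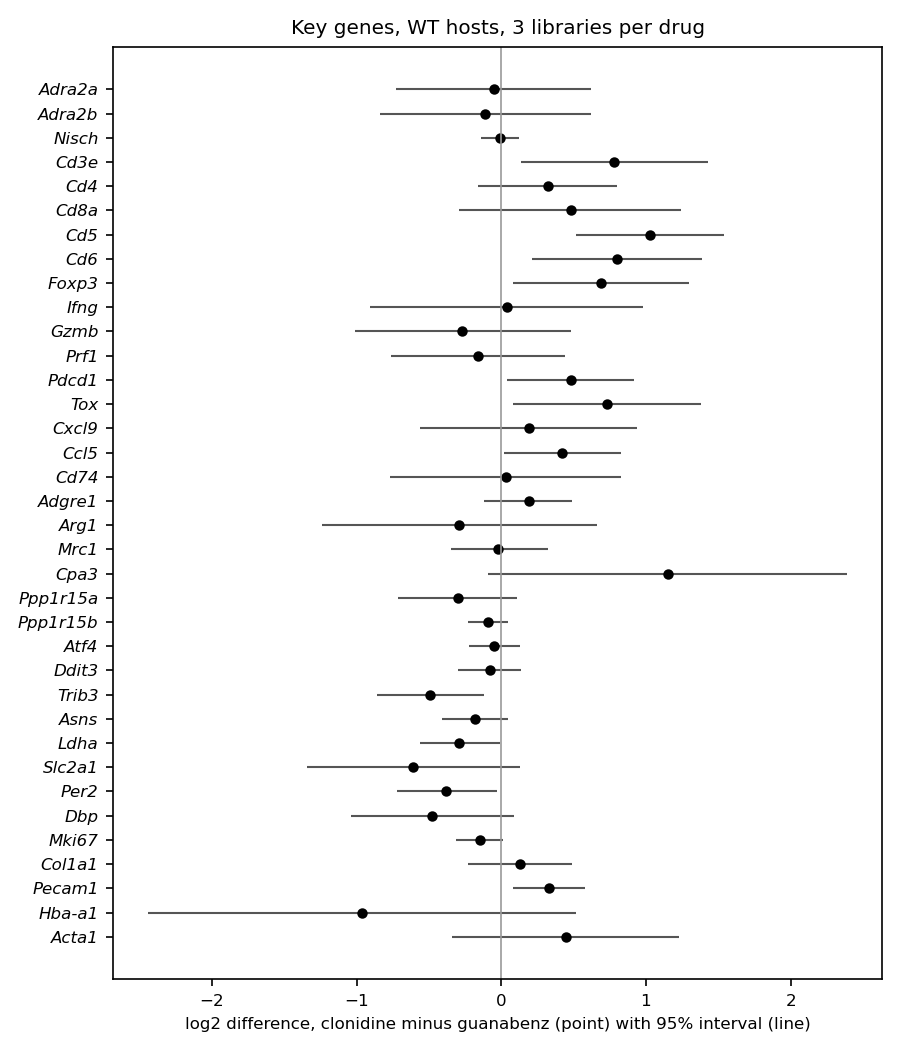
Log2 difference of clonidine over guanabenz in WT hosts (point) with its 95% interval (line) for 36 genes of known role. Nisch, Ppp1r15b and Atf4 have narrow intervals around 0, Cd5, Cd6 and Cd3e lie to the right of 0, Trib3 to the left, and Hba-a1 and Cpa3 have the widest intervals.

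T cell genes were mostly at higher levels with clonidine, and WT-Guanabenz 1 set much of the size. In bulk tumour RNA, fewer cells of a type and less RNA per cell cannot be told apart. Of 15 tested genes of costimulation and proximal T cell receptor signalling, 14 were higher with clonidine, 7 had every clonidine library above every guanabenz library and 7 had an unadjusted p under 0.05, with 0 called by edgeR. Over all tested genes those shares were 48.2%, 5.32% and 2.57%. The list median was 0.6 and became 0.37 without WT-Guanabenz 1. The 7 tested members of the CD3 complex and the CD4 and CD8 coreceptors were all higher, with a median of 0.51 that became 0.18 without WT-Guanabenz 1 and 0.77 without WT-Guanabenz 2.

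Cd5 (chromosome 19, 10718107 to 10739026), which dampens T cell receptor signals, was at 3.19, 2.86 and 2.07 CPM with clonidine and 1.05, 1.48 and 1.43 CPM with guanabenz. No library of either drug overlapped the other drug, and the guanabenz libraries overlapped those of WT-Control. The difference was 1.03 (SE 0.24, 95% interval 0.52 to 1.54, edgeR adjusted p = 0.96) and was 0.9 without WT-Guanabenz 1. Cd6, a related receptor that binds ALCAM, was at 3.95, 3.23 and 2.55 CPM with clonidine and 1.4, 2.38 and 1.81 CPM with guanabenz, a difference of 0.8 (0.21 to 1.39). Icos, an inducible costimulator, differed by 0.79 (0.18 to 1.41). Cd3e, a signalling chain of the T cell receptor complex, was at 6.63, 6.05 and 4.53 CPM with clonidine and 2.02, 4.37 and 3.57 CPM with guanabenz. Its difference of 0.78 (0.14 to 1.43) became 0.54 without WT-Guanabenz 1. Cd8a overlapped between the drugs, at 8.76 to 11.7 CPM with clonidine and 3.93 to 10.1 CPM with guanabenz, and its difference of 0.48 became 0.18 without that library.

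For genes of regulatory T cells the list median depended less on WT-Guanabenz 1, while the mean list level did depend on it. Of 10 members, 9 were higher with clonidine, 5 had non-overlapping groups and 4 an unadjusted p under 0.05, against 5.32% and 2.57% of all genes. Their median of 0.47 stayed between 0.4 and 0.6 when any 1 library was left out. The mean list level differed by 0.54, or by 0.36 without WT-Guanabenz 1 and 0.73 without WT-Guanabenz 3. List levels relative to WT-Control were 0.66, 0.48 and 0.42 with clonidine and -0.38, -0.04 and 0.35 with guanabenz. Foxp3, the lineage transcription factor, was at 3.54, 3.48 and 2.96 CPM with clonidine and 1.75, 1.94 and 2.48 CPM with guanabenz. The difference was 0.69 (SE 0.29, 95% interval 0.08 to 1.3, edgeR adjusted p = 0.96). Ikzf2, which encodes Helios, was at 9.45, 9.11 and 10.0 CPM with clonidine and 6.4, 7.12 and 6.46 CPM with guanabenz, a difference of 0.52 (0.19 to 0.85). Both genes had separate groups, and those of Ikzf2 were the tighter. Ikzf4, which encodes Eos, differed by 0.9 (0.43 to 1.37).

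Effector genes did not share this direction. Of 11 cytotoxic effector genes, 6 were higher and 5 lower with clonidine, and the median of 0.04 became -0.19 without WT-Guanabenz 1. In this list 0 had non-overlapping groups, where 5.32% of all genes lay above and 3.74% below. Gzmb, granzyme B, was at 6.44, 4.02 and 6.79 CPM with clonidine and 4.67, 7.38 and 8.55 CPM with guanabenz, a difference of -0.27 (-1.01 to 0.48). Prf1, perforin, differed by -0.16 (-0.76 to 0.44), and Ifng, interferon gamma, by 0.04 (-0.91 to 0.98). These intervals are wide and allow differences of about 2-fold. Of 14 checkpoint and exhaustion genes, 10 were higher with clonidine. Every clonidine library lay above for 2, against 5.32% of all genes, and below for 1, against 3.74%. The list median of 0.22 became 0.14 without WT-Guanabenz 1 and 0.36 without WT-Clonidine 2. Pdcd1, which encodes PD-1, differed by 0.48 (0.04 to 0.92), and Tox, a transcription factor of exhausted T cells, by 0.73 (0.08 to 1.38). Both overlapped between the groups.

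NK cell genes showed how far 1 library can set a direction. Of 10 members 9 were higher with clonidine, with a median of 0.21, but without WT-Guanabenz 1 only 2 of 10 were higher and the median was -0.09, while without WT-Guanabenz 3 it was 0.52. All 9 tested B and plasma cell genes were higher with clonidine (median 0.44, or 0.27 without WT-Guanabenz 1), all at low levels. Of 10 tested mast cell and eosinophil genes, 9 were higher, with a median of 0.83 that ranged from 0.62 to 1.17 when any 1 library was left out. Cpa3, the mast cell carboxypeptidase, was at 4.33, 4.82 and 1.75 CPM with clonidine and 1.2, 1.29 and 2.38 CPM with guanabenz. The third clonidine library fell within the guanabenz range, and the difference of 1.15 had an interval of -0.09 to 2.39. Ccr3, the eotaxin receptor, had separate groups below 0.6 CPM and differed by 0.83 (0.17 to 1.49).

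**Figure D4:**
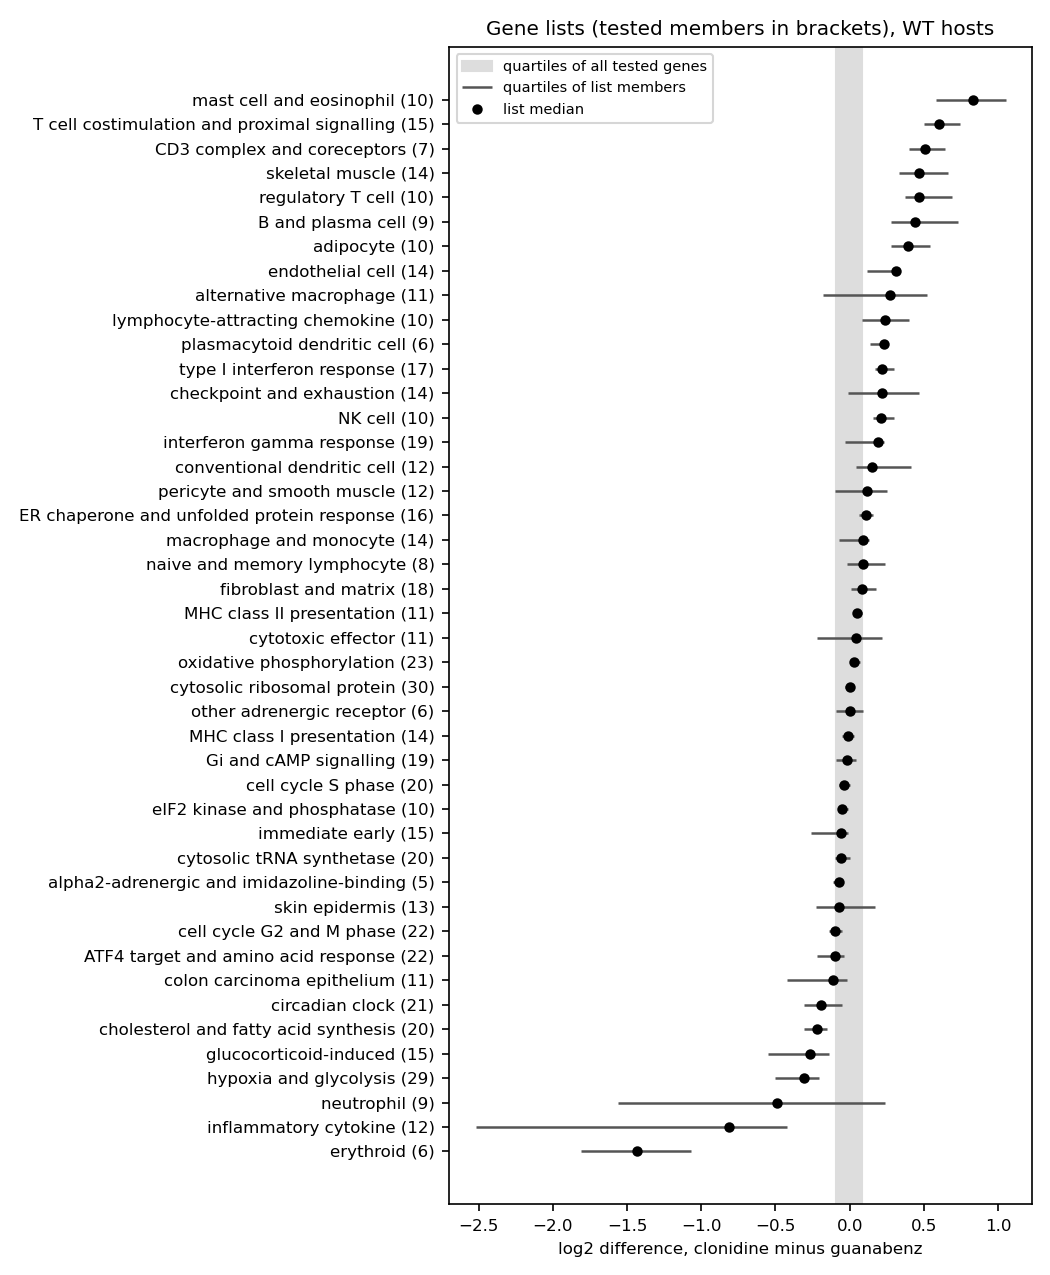
Median log2 difference of clonidine over guanabenz (point) and quartiles of the members (line) for 44 gene lists, with the number of tested members in brackets, beside the quartiles of all tested genes (grey band). Mast cell, T cell, skeletal muscle and regulatory T cell lists lie farthest to the right, and erythroid, inflammatory cytokine, neutrophil and hypoxia lists farthest to the left.

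The macrophage and monocyte list was nearly level, the alternative macrophage list was higher with clonidine, and inflammatory cytokines followed 1 library. The 14 macrophage and monocyte genes had a median of 0.09, with 9 higher, and the median was -0.03 without WT-Clonidine 1. In this list 0 had non-overlapping groups, where 5.32% of all genes lay above and 3.74% below. Adgre1, which encodes F4/80, differed by 0.19 (-0.12 to 0.49). In the list of alternative macrophage activation 6 of 11 were higher (median 0.27, or 0.08 without WT-Clonidine 3), and only 2 had intervals within 2-fold. In it 3 had every clonidine library above, against 5.32% of all genes, and 1 an unadjusted p under 0.05, against 2.57%. List levels relative to WT-Control were 0.52, 0.39 and 0.67 with clonidine and 0.34, 0.22 and 0.22 with guanabenz. Mrc1, the mannose receptor, differed by -0.02 (-0.35 to 0.32). Cd209a and Mgl2, C-type lectins of dendritic cells and macrophages, had separate groups and differed by 1.35 (0.33 to 2.37) and 0.9 (-0.07 to 1.88). Ccl22, a chemokine of mature dendritic cells that binds CCR4, was at 8.77, 7.11 and 8.16 CPM with clonidine and 2.43, 5.64 and 4.87 CPM with guanabenz, a difference of 0.89 (0.17 to 1.61).

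Of 12 inflammatory cytokine genes, 11 were lower with clonidine, with a median of -0.81. At an unadjusted p under 0.05 there were 5, against 2.48% of all genes. However, 0 had non-overlapping groups, where 5.32% of all genes lay above and 3.74% below. Without WT-Guanabenz 3 the median was 0.08 and 7 of 12 were higher. Il6, interleukin 6, was at 0.409, 0.569 and 0.856 CPM with clonidine and at 0.975, 0.587 and 14.0 CPM with guanabenz. The high value was that of WT-Guanabenz 3 alone, and the difference of -3.12 became -0.36 without it. Il1a, interleukin 1 alpha, was at -2.46 with that library and 0.06 without it. Neutrophil genes had a median of -0.49 over 9 members, or -0.22 without WT-Guanabenz 3. The skin epidermis list was highest in that library too, at 1.15 against -0.09 to 0.58 in the other 5. Whether skin in the sample contributed to the cytokine values was not tested.

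The values of antigen presentation and interferon lists depended on single libraries. The 11 genes of MHC class II presentation had a median of 0.05 with 10 higher, -0.17 with 2 higher without WT-Guanabenz 1 and 0.33 without WT-Guanabenz 3. Cd74, the invariant chain, was at 765, 766 and 1220 CPM with clonidine and 449, 857 and 1380 CPM with guanabenz, so the spread within each drug exceeded the difference of 0.03 (-0.77 to 0.83). The 14 MHC class I genes had a median of -0.01. The interferon gamma response list had a median of 0.19 over 19 genes, and it ranged from 0.03 without WT-Guanabenz 1 to 0.26 without WT-Guanabenz 3. All 17 tested type I interferon response genes were higher with clonidine, by a median of 0.22, but without WT-Clonidine 1 only 9 were and the median was 0.02, while without WT-Clonidine 3 it was 0.33. Irf7, a transcription factor that amplifies type I interferon, shows the pattern, with 230 CPM in WT-Clonidine 1 and 106 to 133 CPM in the other 5 libraries. The 10 tested chemokine genes that attract lymphocytes, with their receptors, had a median of 0.24, which was -0.02 without WT-Guanabenz 1 and 0.45 without WT-Guanabenz 3. Cxcl9, a ligand of CXCR3, differed by 0.19 (-0.56 to 0.94).

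The eIF2 pathway, for which the 2 drugs have different reported activities, was close to level at the RNA level. The 10 genes for eIF2 kinases and phosphatase subunits had a median of -0.05, all with intervals within 2-fold. Of these 8 were lower with clonidine, 1 with every clonidine library below, against 3.74% of all genes, and 0 had an unadjusted p under 0.05. List levels relative to WT-Control were -0.09, -0.1 and -0.08 with clonidine and 0.03, -0.05 and -0.07 with guanabenz. Ppp1r15a, the stress-induced phosphatase subunit, was at 18.4, 18.0 and 24.8 CPM with clonidine and 25.8, 22.0 and 27.4 CPM with guanabenz. The groups overlapped through WT-Clonidine 3 and the difference was -0.3 (-0.71 to 0.11). Ppp1r15b, the constitutive subunit, differed by -0.09 (-0.23 to 0.05). Atf4, the transcription factor translated when eIF2 is phosphorylated, differed by -0.05 (-0.22 to 0.13), and Ddit3, which encodes CHOP, by -0.08 (-0.3 to 0.14).

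Of 22 ATF4 target and amino acid response genes, 19 were lower with clonidine, 6 had every clonidine library below every guanabenz library and 2 an unadjusted p under 0.05, against 3.74% and 2.48% of all genes. Their median was only -0.1, or -0.16 without WT-Guanabenz 2. Trib3, a pseudokinase induced by ATF4, was at 21.4, 20.9 and 23.1 CPM with clonidine and 33.1, 30.5 and 28.2 CPM with guanabenz. The groups were separate, and the difference was -0.49 (SE 0.18, 95% interval -0.86 to -0.12, edgeR adjusted p = 0.96). Against WT-Control, which both drugs share, the list median was -0.29 for clonidine and -0.2 for guanabenz. Slc7a5, a subunit of a large neutral amino acid transporter, differed by -0.26 (-0.49 to -0.02). Aars, the alanyl-tRNA synthetase, differed by -0.28 (-0.48 to -0.07) and was the lowest of a separate list of 20 cytosolic tRNA synthetases. That list had a median of -0.06, with 16 lower, and its levels overlapped between the drugs. In it 2 had every clonidine library below and 2 an unadjusted p under 0.05, against 3.74% and 2.48% of all genes. All 16 ER chaperone and unfolded protein response genes were higher with clonidine, by a median of 0.11. Of these 5 had separate groups and 2 an unadjusted p under 0.05, against 5.32% and 2.57% of all genes. Creld2, an ER stress gene, was at 124, 124 and 108 CPM with clonidine and 96.8, 101 and 92.7 CPM with guanabenz, a difference of 0.3 (0.03 to 0.56).

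Hypoxia and glycolysis genes formed the list with the most members on one side. All 29 tested members were lower with clonidine, 16 had every clonidine library below every guanabenz library, against 3.74% of all genes, and 8 had an unadjusted p under 0.05, against 2.48%, with 0 called by edgeR. The median was -0.31 and lay between -0.4 and -0.26 when any 1 library was left out, with WT-Clonidine 3 nearest to the guanabenz libraries. List levels relative to WT-Control were -0.74, -0.59 and -0.28 with clonidine and -0.09, -0.16 and -0.14 with guanabenz. Members of this list share glycolytic and oxygen-dependent regulation, so they are not independent of each other.

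Pdk1, a kinase that closes the entry of pyruvate into mitochondria (chromosome 2, 71873215 to 71903858), was at 39.1, 45.4 and 51.9 CPM with clonidine and 76.1, 70.6 and 67.8 CPM with guanabenz. The groups were well separated, with a difference of -0.65 (SE 0.2, 95% interval -1.08 to -0.22, edgeR adjusted p = 0.96). Ddit4, an inhibitor of mTORC1 that hypoxia, ATF4 and glucocorticoids induce (chromosome 10, 59949675 to 59951770), was at 96.9, 107 and 108 CPM with clonidine and 143, 144 and 136 CPM with guanabenz. Its difference was -0.44 (SE 0.14, -0.74 to -0.13), again with narrow, separate groups. Slc2a1, the glucose transporter GLUT1, was at 81.3, 98.0 and 128 CPM with clonidine and 168, 140 and 159 CPM with guanabenz, a difference of -0.61 (-1.34 to 0.13). Ldha, lactate dehydrogenase A, was at 627, 616 and 779 CPM with clonidine and 858, 807 and 800 CPM with guanabenz, a difference of -0.29 (-0.56 to -0.01). Pfkl, a phosphofructokinase, differed by -0.44 (-0.82 to -0.06).

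The promoters of this list were searched for ACGTG, the core of the hypoxia response element. The search covered the 250 bases upstream of each RefSeq transcription start on both strands (reverse complement CACGT). Of 28 list members with a window, 16 held ACGTG, in 18 of 40 windows (45.0%), where 5444 of all 32851 windows (16.6%) did. The list was put together from hypoxia and glycolysis genes, so this share describes the choice of genes. It is no evidence on the drugs. A match is a description of the letters, not a site in use. Upstream stretches of 2 members with separate groups and a match are printed to show where the letters fall. They run 5′ to 3′ on the gene's strand, with each match in capitals, from RefSeq on GRCm38.p6. Stretches were cut where an annotated exon or the gene begins. Pdk1 was looked up as well and gave no stretch with a match to print. Ddit4, at chr10:59951835-59952020 on the minus strand, held 1 match, and Ldha, at chr7:46845554-46845803 on the plus strand, held 5, of which overlapping pairs make the palindrome CACGTG. The Ldha stretch is upstream of a RefSeq start but inside the extent of the gene, which has another start farther upstream.
Ddit4: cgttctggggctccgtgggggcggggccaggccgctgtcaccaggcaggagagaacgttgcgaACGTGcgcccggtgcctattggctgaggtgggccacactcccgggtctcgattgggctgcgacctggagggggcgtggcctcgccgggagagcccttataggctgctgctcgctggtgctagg
Ldha: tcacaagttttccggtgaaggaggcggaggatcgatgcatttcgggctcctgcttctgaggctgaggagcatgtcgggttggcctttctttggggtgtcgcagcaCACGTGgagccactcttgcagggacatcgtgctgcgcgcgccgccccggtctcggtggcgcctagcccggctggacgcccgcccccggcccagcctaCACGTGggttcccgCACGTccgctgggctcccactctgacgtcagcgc

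Cholesterol and fatty acid synthesis genes, the targets of SREBP, were lower with clonidine in 19 of 20 cases. Of these 9 had separate groups, against 3.74% of all genes, and 4 an unadjusted p under 0.05, against 2.48%, with a median of -0.22. The median was -0.14 without WT-Clonidine 3 and -0.32 without WT-Clonidine 2. List levels relative to the WT-Control mean overlapped, at -0.03, 0.1 and -0.23 with clonidine and 0.26, 0.21 and 0.07 with guanabenz. The WT-Control libraries themselves were at -0.24, -0.04 and 0.27, a spread as wide as the difference between the drugs. Lss, lanosterol synthase, was at 34.5, 39.5 and 27.3 CPM with clonidine and 47.0, 47.4 and 42.3 CPM with guanabenz, a difference of -0.43 (-0.71 to -0.15). Insig1, an ER retention factor for the SREBP complex and itself a target of SREBP, differed by -0.39 (-0.68 to -0.09). Relative to the shared WT-Control the list median was -0.05 for clonidine and 0.16 for guanabenz.

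Circadian clock genes were lower with clonidine in 17 of 21 cases, with 6 in separate groups, against 3.74% of all genes, 5 at an unadjusted p under 0.05, against 2.48%, and a median of -0.19. The labels give no time of day for tumour collection, so a difference in that hour cannot be told apart from the drug. Cry2, a repressor of the clock (chromosome 2, 92403646 to 92434085), was at 11.0, 10.9 and 13.0 CPM with clonidine and 15.3, 14.4 and 13.6 CPM with guanabenz. Its difference was -0.31 (SE 0.09, 95% interval -0.5 to -0.13, edgeR adjusted p = 0.96). Per2, another repressor, differed by -0.38 (-0.72 to -0.03), and its groups were separate. Ciart, a repressor that CLOCK and BMAL1 induce (chromosome 3, 95878500 to 95882257), was at 3.33, 3.76 and 5.26 CPM with clonidine and 6.95, 5.39 and 5.98 CPM with guanabenz, a difference of -0.57 (-0.99 to -0.16). Nr1d1 and Arntl, chosen after their values were seen as the opposite arms of the clock, differed by -0.07 (-0.46 to 0.33) and 0.1 (-0.24 to 0.43).

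The canonical E-box CACGTG, bound by CLOCK and BMAL1 and identical to its own reverse complement, contains the ACGTG core and so overlaps that search. It was found in 6 of 25 windows of the clock list (24.0%), covering 5 of 17 genes, and in 1978 of all 32851 windows (6.02%). The list was put together from clock genes, so this share too describes the choice of genes and not the drugs. The stretch upstream of Ciart, at chr3:95882258-95882478 on the minus strand, held 3 matches and is printed because the groups of this gene were separate.
Ciart: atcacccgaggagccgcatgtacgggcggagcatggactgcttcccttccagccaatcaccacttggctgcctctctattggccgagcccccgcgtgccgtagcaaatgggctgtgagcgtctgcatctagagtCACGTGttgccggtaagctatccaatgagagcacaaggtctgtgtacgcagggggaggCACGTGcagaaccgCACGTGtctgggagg

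Glucocorticoid-induced genes were lower with clonidine in 14 of 15 cases, with a median of -0.27. Of these 4 had separate groups, against 3.74% of all genes, and 2 an unadjusted p under 0.05, against 2.48%. The metallothionein Mt2 was at 34.3, 32.8 and 70.9 CPM with clonidine and 88.7, 86.4 and 82.7 CPM with guanabenz, a difference of -0.91 (-1.82 to 0.01). WT-Clonidine 3 was much closer to the guanabenz libraries than the other 2 clonidine libraries were, and the list median without it was -0.45. Of the 15 members Ddit4 is also in the hypoxia list, and this list shares genes with the clock and immediate early lists too. Cell division genes differed little. All 22 genes of G2 and M phase were lower with clonidine, but by a median of only -0.1, which was -0.02 with 8 higher without WT-Clonidine 3. With all libraries 4 had separate groups and 3 an unadjusted p under 0.05, against 3.74% and 2.48% of all genes. Mki67, the proliferation antigen, differed by -0.15 (-0.31 to 0.01), and the 20 S phase genes had a median of -0.04. Ribosomal protein genes split evenly, with 15 of 30 higher and a median of 0, and the 23 oxidative phosphorylation genes had a median of 0.03. Every member of the S phase, G2 and M phase, ribosomal and oxidative phosphorylation lists had a 95% interval within 2-fold.

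**Figure D5:**
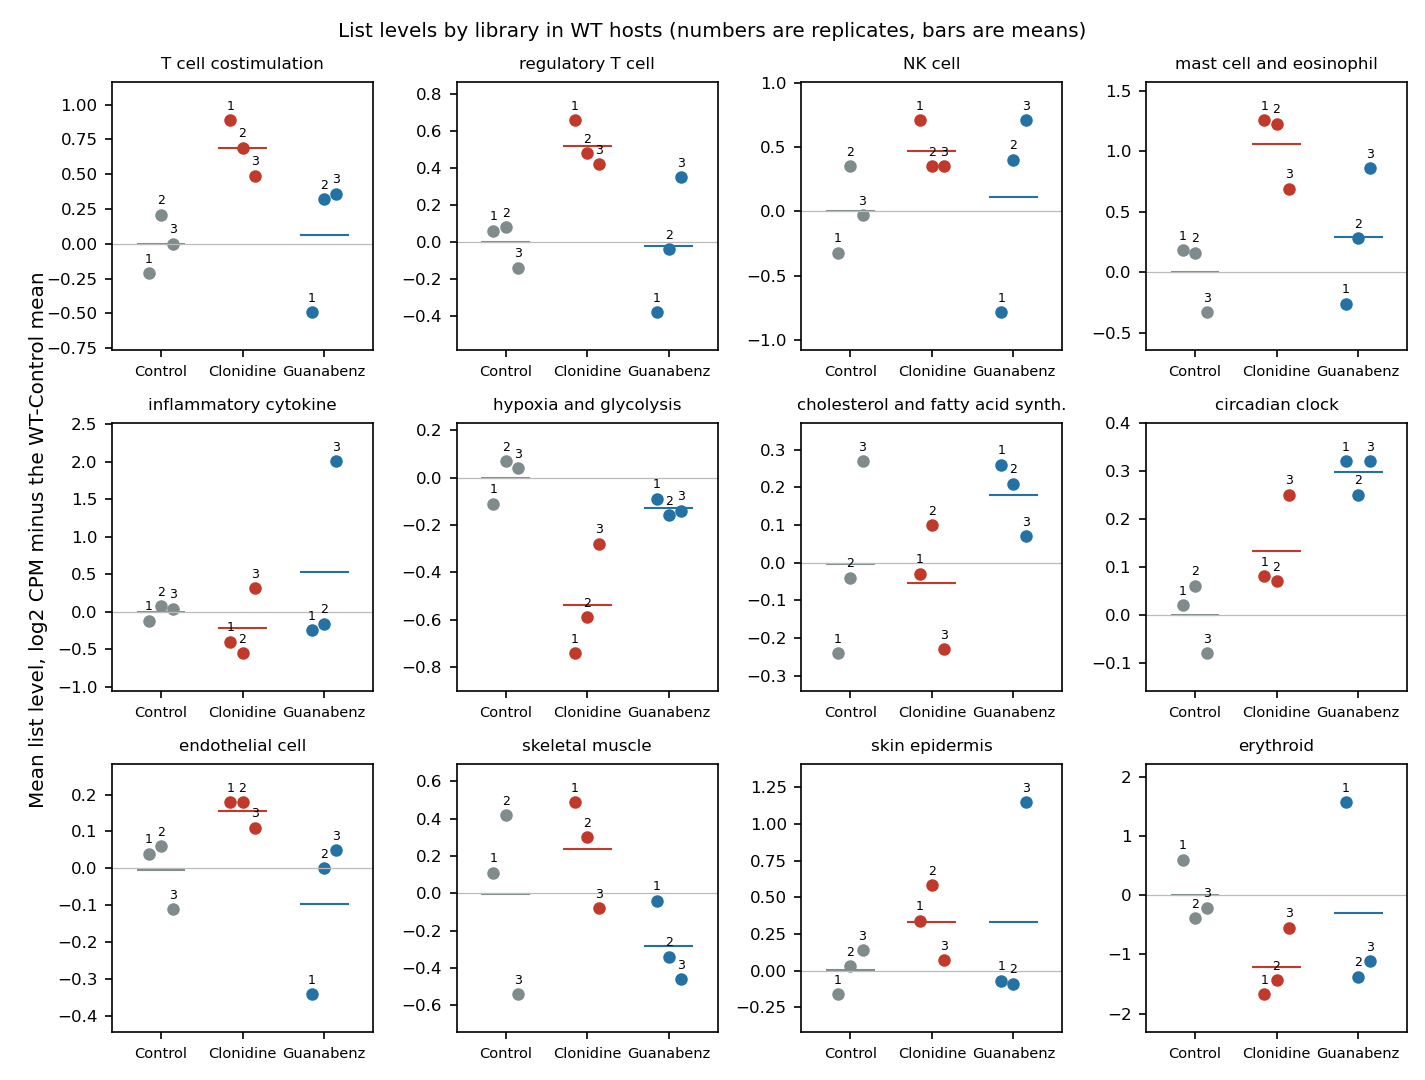
Mean log2 CPM of the members of 12 gene lists in each WT library, minus the WT-Control mean (vertical axis), by treatment (horizontal axis), with replicate numbers beside the points and group means as bars. Hypoxia levels of the 3 clonidine libraries lie below the 3 guanabenz libraries, while the NK cell, inflammatory cytokine, skin and erythroid panels each have 1 guanabenz library far from the other 2.

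Endothelial genes were mostly at higher levels with clonidine. Of the 14 members of this list, which holds Plvap but not Hey1, Gja5 or Sema3g, 12 were higher with clonidine, 5 had separate groups, against 5.32% of all genes, and 9 an unadjusted p under 0.05, against 2.57%. The median was 0.31, or 0.19 without WT-Guanabenz 1, whose list level of -0.34 relative to WT-Control was the lowest. Pecam1, which encodes CD31, was at 68.0, 68.0 and 60.6 CPM with clonidine and 42.0, 53.4 and 60.9 CPM with guanabenz. The groups touched at WT-Clonidine 3 and WT-Guanabenz 3, and the difference was 0.33 (0.08 to 0.58), or 0.19 without WT-Guanabenz 1. Cdh5, the cadherin of endothelial junctions, differed by 0.36 (0.11 to 0.61). Rgs5, a marker of pericytes, differed by 0.41 (0.16 to 0.65), while the 12 pericyte and smooth muscle genes together had a median of 0.12. Fibroblast and matrix genes were nearly level, with a median of 0.08 over 18 members and a difference of 0.13 (-0.23 to 0.49) for Col1a1, a collagen I chain.

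Skeletal muscle, adipocyte and erythroid markers each lay on one side, with 0 called by edgeR and list levels that overlapped between the drugs, and their part in the other results was not tested. All 14 skeletal muscle genes were higher with clonidine, with a median of 0.47. Of these 7 had separate groups, against 5.32% of all genes, but only 1 an unadjusted p under 0.05, against 2.57%. List levels relative to WT-Control ran from -0.08 to 0.49 with clonidine and from -0.46 to -0.04 with guanabenz. Myh4, a fast myosin heavy chain, was at 62.1, 44.3 and 45.4 CPM with clonidine and 28.8, 9.39 and 23.9 CPM with guanabenz, a difference of 1.29 (0.19 to 2.39). All 10 adipocyte genes were higher, with a median of 0.39, or 0.63 without WT-Guanabenz 3. Of these 4 had separate groups and 2 an unadjusted p under 0.05, against 5.32% and 2.57% of all genes. Adipocyte list levels ran from 0.16 to 0.68 with clonidine and from -0.14 to 0.31 with guanabenz. Lpl, lipoprotein lipase, was at 46.7, 53.9 and 32.9 CPM with clonidine and 23.1, 28.0 and 29.6 CPM with guanabenz, a difference of 0.72 (0.04 to 1.41). Adipoq, adiponectin, stayed between 2.07 and 2.56 CPM with clonidine and between 1.01 and 1.65 CPM with guanabenz. All 6 tested erythroid genes were lower with clonidine, with a median of -1.43, but 5 of 6 were higher without WT-Guanabenz 1 and the median was 0.13. Slc4a1, the red cell anion exchanger, was at 2.52 CPM in that library and between 0.044 and 0.103 CPM in the other 5.

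The same contrast in KO hosts was set beside these values, to ask whether differences between the drugs depended on host Adra2a. In the KO-Guanabenz group the title names guanabenz but the treatment entry of all 3 libraries reads Untreated. The title was followed, and every KO value here rests on it. In addition, Y-linked transcripts were above 1 CPM in 2 of 3 KO-Guanabenz and 0 of 3 KO-Clonidine libraries. In KO hosts edgeR called 0 genes (0%) between the drugs, with 2478 (15.4%) at an unadjusted p under 0.05. The edgeR test of the difference between WT and KO hosts called 0 genes (0%) too, and its smallest adjusted p was 0.41. Unadjusted, 1286 genes (7.98%) had a p under 0.05, and DESeq2 called 25. The CD3 and coreceptor list had a median of 0.51 in WT and -0.6 in KO hosts, and T cell costimulation 0.6 and -0.35. The hypoxia list had -0.31 in WT and 0.11 in KO hosts, and the ribosomal list 0 and 0.28. Opposite sides were not particular to these lists. NK cell genes had 0.21 in WT and -0.5 in KO hosts, and MHC class II 0.05 and -0.69. Glucocorticoid-induced genes had -0.27 and 0.24, and circadian clock genes -0.19 and 0.19. Erythroid genes had -1.43 and 2, where the WT median followed WT-Guanabenz 1. Other lists had medians on the same side in WT and KO hosts. Mast cell and eosinophil genes had 0.83 and 0.82, and skeletal muscle genes 0.47 and 0.56. Adipocyte genes had 0.39 and 0.52, and ER chaperone genes 0.11 and 0.15. For Ddit4 the drugs differed by -0.44 in WT and 0.55 in KO hosts, a difference of -0.98 between hosts (SE 0.2, edgeR adjusted p = 0.41). For Per2 the values were -0.38 and 0.62, and for Cd5 1.03 and -0.32, with the same adjusted p of 0.41. None of these differences between hosts passed the test.

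Against WT-Control, which both contrasts share, edgeR called 0 genes (0%) for each drug. At an unadjusted p under 0.05 there were 2079 genes (12.9%) for clonidine and 1840 (11.4%) for guanabenz. The list medians against control, side by side, were 0.65 for clonidine and 0.05 for guanabenz in T cell costimulation, 0.42 and 0.03 in regulatory T cells, -0.5 and -0.15 in hypoxia and glycolysis, and -0.19 and -0.18 in ribosomal proteins. The first 3 of these lists lay nearer to control with guanabenz, and the ribosomal list was at the same level with both drugs. Other lists lay nearer to control with clonidine. Among them, clonidine first, were inflammatory cytokines (-0.05 and 0.73), skeletal muscle (0.13 and -0.32), cytotoxic effectors (0.16 and 0.31) and circadian clock (0.12 and 0.21). The lists therefore do not place either drug nearer to control in general.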

How the data were processed

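Tumour RNA was sequenced in 18 libraries, 3 in each of 6 groups, which the titles of the samples name. The values deposited are estimated counts, 1 whole number per gene and library. The authors trimmed reads with Trim Galore 0.6.5 and quantified them with kallisto 0.46.0 on GRCm38, per the submitters' processing notes. Strandedness and the summing of transcripts to genes are not given in the sources used here. Overlapping antisense genes therefore cannot be told apart. kallisto divides reads among similar transcripts, so histone, ribosomal protein, globin, metallothionein, H2, Gbp, Oas and Klr genes and Gm21188 are uncertain. Symbols came from the RefSeq table of GRCm38.p6, which matched 20994 of 21015 gene IDs. The other 21, with at most 0.022% of a library's counts, were left out, and 1822 genes had no counts. Totals in units of 1e6 ran from 54.7 to 491.1 (median 92.4), so the spread between libraries set the precision (biological coefficient of variation 0.144).

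The low-count filter was filterByExpr and the scaling TMM. A model of 6 group means over all 18 libraries was fitted in R 4.3.3 with edgeR 4.0.16 (residual degrees of freedom 12, prior 4.36). Its quasi-likelihood tests were two-sided, with Benjamini-Hochberg adjustment over all tested genes, and an adjusted p under 0.05 was a call. Intervals cover 95%. List levels used log2 CPM with a prior count of 2. The 45 lists, 37 key genes and comparisons were chosen with earlier results of these data known. Some genes are in more than 1 list, and the Y-linked list served only as a check. Named genes are the key genes, the 15 genes with the smallest p among those averaging 0 or more on the log2 CPM scale, and up to 3 members per list with the smallest p; Cdh1, Epcam, Nr1d1 and Arntl were chosen after their values were seen. The scripts were tested on simulated data. Alternatives were DESeq2 1.42.0, limma-voom (limma 3.58.1) with quality weights, RLE or total-count scaling, other low-count filters, the replicate number as a block, a term for Y-linked transcripts, fits of fewer groups, removal of the trend with transcript length, and leaving out each library. Replicate numbers are not stated to pair the libraries. Correlations between the deviations of same-numbered clonidine and guanabenz libraries were -0.1, -0.04 and 0.2. Those of differently numbered ones ran from -0.19 to 0.3. With 3 libraries per drug these values cannot show whether the numbers pair them.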

Additional observations from a re-analysis of the deposited data

How the results depend on the processing

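The edgeR count of 0 genes between the drugs held under RLE and total-count scaling, both low-count filters, a term for Y-linked transcripts, the fits of fewer groups and the replicate block, while DESeq2 called 4 and limma-voom 1. With 1 library left out at a time it ranged from 0 to 1, with H2ac11 called without WT-Guanabenz 3. For the difference between WT and KO hosts DESeq2 called 25 genes and every other setting 0. With the replicate number as a block the edgeR count was 0 for both, with smallest adjusted p of 0.97 and 0.5. Whether the numbers pair the libraries is not known. With 1 library left out, the sign turned for 25 of 170 named genes and 15 of 45 list medians, several of them close to 0. Examples are given as the lowest and highest difference over these omissions. Without WT-Clonidine 1 the direction turned for Oas1a (-0.01 to 0.42), Irf7 (-0.03 to 0.58) and the macrophage list (-0.03 to 0.13). Without WT-Guanabenz 1 it turned for Hba-a1 (-1.37 to 0.2), Slc4a1 (-4.05 to 0.23), Alas2 (-1.9 to 0.05) and the erythroid list (-1.88 to 0.13), and in the lists of cytotoxic effector (to -0.19), NK cell (to -0.09), MHC class II (to -0.17) and chemokine genes (to -0.02). Without WT-Guanabenz 3 it turned for Il1a (-2.97 to 0.06), Sprr1a (-1.86 to 0.05), Cldn4 (-1.21 to 0.75) and the colon carcinoma epithelium list (-0.4 to 0.33), and in the lists of inflammatory cytokine (to 0.08), skin epidermis (to 0.4) and immediate early genes (to 0.05). Limma-voom turned Cldn4 (0.19), Krt17 (0.28), Esrp1 (0.21), Adra2a (0.05), Atf4 (0.03) and the epithelium (0.19) and skin (0.35) lists. The cytotoxic list turned under the stricter filter (-0.17) and the skin list with the Y-linked term (0.1). The causes were not tested. Scaling moved the median of all genes by less than 0.1. After removal of the trend with transcript length, which ran from a median of 0.03 for the shortest genes to -0.05 for the longest, in 5 bins, the hypoxia median was -0.33. Low levels limit Adra2a, Adra2b and the B cell genes.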
